A study of Mus musculus with 2 samples.

Results

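*Rgs5* (ENSMUSG00000026678) and *Mgll* (ENSMUSG00000033174) are 2 of the 479 genes of a Xenium panel that was imaged on 2 sections of mouse lung carrying small cell lung cancer. Both genes were chosen because their levels were several times higher in the neuroendocrine (NE) tumor cells of one section than in those of the other, so that difference selected them and is given here as a description only. Both sections came from 1 FFPE block on 1 slide. The RPR2 section came from mice with floxed *Rb1*, *Trp53* and *Rbl2* that were inactivated in the lung by adenoviral Cre, given into the trachea at 10 weeks of age, with the lungs taken 6 months later. The CRPR2 section had the same 3 conditional KO alleles and the same virus, and in addition a germline KO of *Cracd*, which is therefore missing from every cell of the animal and not from the tumor cells alone. The deletions of *Rb1*, *Trp53* and *Rbl2* were common to both genotypes. With 1 section per genotype, genotype, animal, section and tumor burden cannot be told apart, and no difference between the sections was tested.

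*Rgs5* encodes a regulator of G protein signaling. Proteins of this family speed up GTP hydrolysis by the alpha subunits of heterotrimeric G proteins and so shorten the signal of receptors coupled to them. *Rgs5* is widely used as a marker of pericytes, the contractile cells that wrap capillaries, and of some vascular smooth muscle. *Mgll* encodes monoacylglycerol lipase, which cleaves monoacylglycerols into glycerol and a fatty acid as the last step of fat breakdown and degrades an arachidonic acid-based endocannabinoid. It is known for high levels in fat, and no cell type of the lung vessel wall is defined by it.

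The promoters are shown because both genes were followed through the same cell classes and the same section difference, and they look unlike each other. The sequences are RefSeq's on GRCm38.p6, and the files analysed here name no build for the transcripts. Each run holds the 250 bases before the first annotated start of the gene, 5′ to 3′ on the plus strand, which is the coding strand of both. *Rgs5* lies at chr1:169655251-169655500 and *Mgll* at chr6:88724162-88724411. Capitals mark a match to a searched motif.
Rgs5 promoter: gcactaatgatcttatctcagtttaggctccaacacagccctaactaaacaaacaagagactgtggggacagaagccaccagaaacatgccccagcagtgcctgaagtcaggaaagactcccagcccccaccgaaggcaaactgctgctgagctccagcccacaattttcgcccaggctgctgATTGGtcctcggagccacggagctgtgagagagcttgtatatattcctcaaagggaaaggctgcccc
Mgll promoter: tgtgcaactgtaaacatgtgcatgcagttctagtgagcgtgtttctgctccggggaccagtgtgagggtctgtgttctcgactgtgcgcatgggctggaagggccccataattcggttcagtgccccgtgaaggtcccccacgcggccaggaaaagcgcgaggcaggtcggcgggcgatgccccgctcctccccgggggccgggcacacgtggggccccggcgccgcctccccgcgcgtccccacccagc
The *Rgs5* window had 53.6% G or C and 4 CG pairs, close to the median window of 52.4% and 6 pairs over 32851 mouse promoters of the same length. The *Mgll* window had 68.0% G or C and 23 CG pairs, above the upper quartiles of 61.2% and 16 pairs. Searched on both strands were the TATA box (TATAAA), the box of the factor NF-Y (CCAAT), the GC box of Sp1 factors (GGGCGG), the core of nuclear receptor elements (AGGTCA), the core bound by the Notch effector RBPJ (TGGGAA) and the CArG box of serum response factor, which many contractile genes carry. The 1 match in the *Rgs5* window was to CCAAT, read on the minus strand and printed as ATTGG from base -67 to -63. Only the exact string TATAAA was searched for the TATA box, so the run tatatat near the end of this window was not scored. CCAAT was present in 33.8% of all promoter windows, and the CArG box, in neither window, in 1.47%. The *Mgll* window held none of the 6. A second annotated start of *Mgll*, whose window at chr6:88724454-88724703 lies within the gene and is not printed, had 74.8% G or C, 40 CG pairs and a GC box on the minus strand from base -121 to -116.

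After cells with under 20 gene transcripts were left out, 152915 cells remained in RPR2 and 340609 in CRPR2, with a median of 101 transcripts per cell in both. Levels are given in CPM, the transcripts of the gene divided by all gene transcripts of the same cells and scaled to counts per 1e6, each with an exact 95% interval that covers counting error only and not the spread between animals. The 20 negative control probes averaged 2.75 and 2.29 CPM, and none exceeded 9.93 CPM. Cells with 4 or more transcripts of *Chga*, *Chgb*, *Scg5*, *Snap25* and *Celf3* together were taken as tumor cells, 13782 in RPR2 (9.01%) and 160674 in CRPR2 (47.2%). Other cells were assigned by lists of marker genes that held neither *Rgs5* nor *Mgll*, and such a class may hold transcripts that spilled over from cells next to it, since cells were outlined by expanding nuclei. Cells were assigned by these lists, so a class led by genes of its own list is no test of its name. In both sections the AT2-like cells and the cells of the glial list were led by genes outside their lists. The cells of the mural list (10 genes such as *Acta2*, *Myh11* and *Higd1b*) were led in RPR2 by *Cnn1* and *Pln* followed by *Hrc*, *Myoz2*, *Pgam2* and *Trdn*, genes of striated muscle. They were therefore split by 7 striated muscle genes chosen after the values were seen. The 10534 RPR2 and 8886 CRPR2 cells with none of these transcripts were led by *Cnn1*, *Tagln*, *Myh11* and *Myl9* and are called mural-like below, although the B cell gene *Ms4a1* stood among the 10 leading genes in CRPR2.

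The label "mural" held in part for *Rgs5* and did not hold for *Mgll*. *Rgs5* was at 1678 CPM (1599 to 1761) in mural-like cells of RPR2 and at 4865 CPM (4722 to 5012) in those of CRPR2. Cells of the whole mural list were second of the classes in both sections, at 1770 and 4977 CPM. The 180 RPR2 and 970 CRPR2 adipocyte-like cells, defined by *Car3*, *Pck1* and *Retn*, stood above them at 3189 CPM (2500 to 4010) and 7476 CPM (7016 to 7958). Most of these cells also held mural transcripts, 150 in RPR2 at 3684 CPM and 779 in CRPR2 at 7962 CPM. The 30 RPR2 cells without any had 2 *Rgs5* transcripts, or 553 CPM (67.0 to 1997). The 191 such CRPR2 cells were at 4944 CPM (4044 to 5985). Endothelial-like and fibroblast-like cells followed at 349 and 339 CPM in RPR2, where their intervals overlapped, and at 1906 and 1752 CPM in CRPR2, where they did not. In RPR2, AT2-like (187 CPM), macrophage- or monocyte-like (186 CPM), T- or NK-like (153 CPM), neutrophil-like (147 CPM), ciliated-like (112 CPM) and tumor cells (101 CPM) had intervals that each overlapped the next. In CRPR2 tumor cells were at 340 CPM, below AT2-like cells at 398 CPM and above secretory-like cells at 275 CPM. Mesothelial-like, ciliated-like and the 193 cartilage-like cells were lowest in CRPR2, at 219, 135 and 113 CPM with overlapping intervals.

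*Mgll* was by far highest in adipocyte-like cells, at 20753 CPM (18929 to 22706) in RPR2 and 29038 CPM (28125 to 29973) in CRPR2. Of these cells 85.0% and 90.2% held an *Mgll* transcript. Among the classes with 50 or more cells, macrophage- or monocyte-like cells came next at 6824 and 9098 CPM, then endothelial-like cells at 5668 and 5382 CPM and then cells of the mural list at 5320 and 5121 CPM. Mural-like cells alone stood at 5938 and 5588 CPM, a little above the endothelial-like value in both sections. Fibroblast-like cells held 3680 and 2936 CPM and AT2-like cells 2859 and 1965 CPM. The lowest class in both sections was the tumor cells, at 113 CPM (97.6 to 131) in RPR2 and 417 CPM (408 to 427) in CRPR2. The few cells of the glial list, 47 and 31, were left out of this order and held 10589 CPM (7599 to 14365) and 12255 CPM (8268 to 17495).

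**Figure D1:**
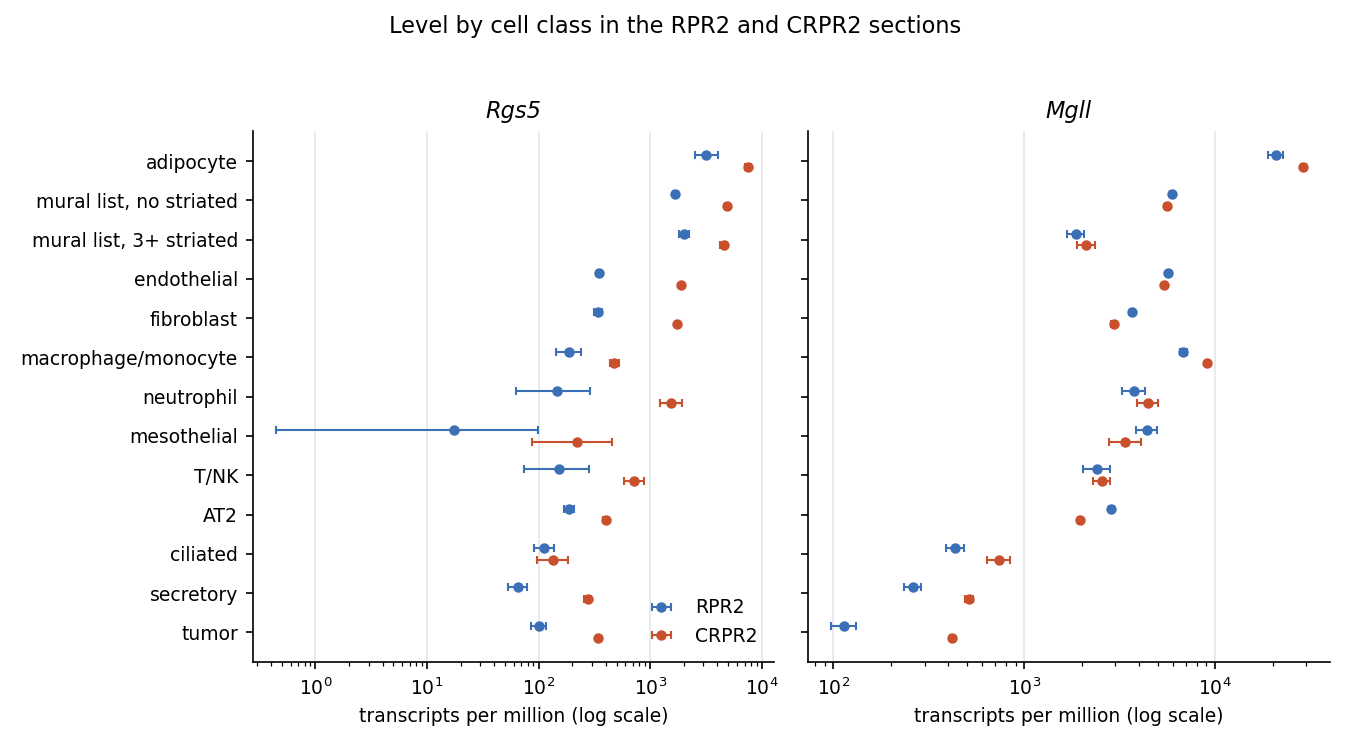
Levels of *Rgs5* and *Mgll* in each cell class in CPM on a log axis, with 1 point per section and bars for the exact 95% counting interval. The mural list is drawn as cells without and cells with 3 or more striated muscle transcripts. Adipocyte-like cells were highest for both genes. For *Rgs5* the mural-list rows came next, at 1678 (without) and 2004 CPM (with) in RPR2 and at 4865 and 4559 CPM in CRPR2. Tumor cells were lowest for *Mgll* at 113 and 417 CPM.

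Single markers sorted the mural and endothelial cells more finely. These groups take every cell with 2 or more transcripts of the marker and overlap each other. In CRPR2, *Rgs5* was at 8268 CPM in cells with *Higd1b*, a lung pericyte gene, and at 1381 CPM in cells with *Cnn1*, which encodes the smooth muscle protein calponin. In RPR2 the same groups stood at 1289 and 1237 CPM, next to each other. Cells with *Aspn*, which encodes the matrix protein asporin, held 2697 and 7507 CPM. The highest values came from 27 RPR2 and 156 CRPR2 cells with *Colec11*, which encodes a collectin, at 16529 and 29967 CPM. In cells with *Aqp7*, the glycerol channel of fat and also of capillary endothelium, *Rgs5* was at 6231 and 14009 CPM. The *Aspn*, *Colec11* and *Aqp7* groups were chosen after the values were seen, among the genes most raised in cells rich in *Rgs5*. High *Rgs5* with these markers was therefore built into their choice. Among endothelial markers in RPR2, *Rgs5* was at 246 CPM with *Gpihbp1*, a capillary gene, and at 851 CPM with *Mmrn1*, a lymphatic gene. In CRPR2 that order was turned, at 2626 and 1070 CPM.

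Over the macrophage markers *Mgll* ranged widely. In RPR2 and CRPR2, cells with *Marco* held 12319 and 12329 CPM, cells with *Krt79* held 12524 and 12580 CPM, and cells with *Atp6v0d2* held 11096 and 10392 CPM. *Krt79* and *Atp6v0d2* were chosen after the values were seen, among the genes most raised in cells with 3 or more *Mgll* transcripts. High *Mgll* with these markers was therefore built into their choice. *Marco* is a scavenger receptor of alveolar macrophages. Cells with *Folr2*, *Cd209a* or *F13a1*, genes of other resident macrophages and of dendritic cells, held 1537, 2087 and 2290 CPM in RPR2, against 2412, 2298 and 3017 CPM in the other section. Cells with *Ms4a7* were also low, at 1674 and 3131 CPM. Cells with *Mrc1* (6761 and 8643 CPM) or *Cd68* (6853 and 6978 CPM) lay between. *Rgs5* ran the other way over the same groups, at 32.5 and 174 CPM with *Marco* and at 936 and 1762 CPM with *Folr2*. Over the 15 endothelial markers *Mgll* ran from 802 CPM with *Prox1*, a lymphatic transcription factor also abundant in tumor cells, to 6584 CPM with *Kdr*, a receptor for vascular endothelial growth factor, in RPR2. In CRPR2 it ran from 606 CPM with *Prox1* to 7225 CPM with *Mmrn1*.

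Both genes were sparse per cell. *Rgs5* was held by 2.49% of RPR2 cells and 4.83% of CRPR2 cells, *Mgll* by 25.3% and 13.1%, and both together by 1376 and 4834 cells, the latter 1.42%. With every cell thinned to 50 transcripts, which leaves out 15856 and 34059 shallower cells, the shares were 1.44% and 2.88% for *Rgs5* and 14.9% and 7.42% for *Mgll*. Cells holding *Rgs5* held *Mgll* more often than cells without it, 36.2% against 25.1% in RPR2 and 29.4% against 12.3% in CRPR2. After thinning the same shares were 20.8% against 14.8% and 19.0% against 7.08%. These shares mix the classes, and within classes the order was not the same throughout. Endothelial-like cells kept it, at 45.3% against 36.6% and 51.3% against 29.8%. Macrophage- or monocyte-like cells had the reverse, 10.6% against 37.4% and 30.5% against 49.6%, as did thinned mural-like cells of CRPR2 (17.3% against 22.7%), while those of RPR2 had 23.6% against 23.8%. In fibroblast-like cells the shares were 28.1% against 29.2% and 26.1% against 24.7%, with overlapping intervals. The greatest number in a cell was 22 and 30 transcripts for *Rgs5* and 13 and 17 for *Mgll*. Cells with a lone *Rgs5* transcript supplied 43.8% of all *Rgs5* transcripts in RPR2 and 34.4% in CRPR2. In ciliated-like cells, an epithelium without a mural program, 0.973% and 1.25% held *Rgs5* at a median of 102 transcripts per cell. The other epithelial classes stood at 0.622% and 2.23% (secretory-like) and at 1.82% and 3.86% (AT2-like). The RPR2 ciliated-like value is near the share of RPR2 tumor cells (124 of 13782) at a median of 111. Of the CRPR2 tumor cells 2.98% held it, between the secretory-like and AT2-like shares of that section. Whether low shares of this size reflect expression was not tested.

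Pooled over cells rich in *Rgs5*, fat and vessel genes were among the most raised, and over cells rich in *Mgll*, fat and macrophage genes. The folds below are of pooled transcripts and do not tell how many of the cells held a gene. With 3 or more *Rgs5* transcripts there were 483 cells in RPR2 and 2995 in CRPR2. Of these, 48.2% and 23.3% were in the mural list, 34.4% and 37.1% were endothelial-like and 2.07% and 10.5% were tumor cells. Adipocyte-like cells were only 1.86% and 4.41%. The genes most raised in them against cells without *Rgs5*, with 10 CPM added to both sides, were *Aqp7* (15.9-fold and 28.9-fold) and *Car3* (12.8-fold and 21.4-fold), with *Colec11*, *Aspn* and *Tcf15* among the 10 leading genes in both sections. *Tcf15* encodes a transcription factor of capillary endothelium in fat and muscle. *Higd1b* was among the 10 in CRPR2, at 2583 CPM against 152 CPM in cells without *Rgs5*. The striated muscle gene *Myoz2* was among the 10 in RPR2 (5.82-fold). With 3 or more *Mgll* transcripts there were 4955 and 6597 cells, of which 66.9% and 43.2% were endothelial-like, 6.48% and 23.7% macrophage- or monocyte-like, and 1.55% and 8.85% adipocyte-like. *Car3*, which encodes a carbonic anhydrase abundant in fat, led them in both sections at 27.8-fold and 137-fold, followed by *Pck1* at 22.8-fold and 95.4-fold, and *Retn*, *Aqp7*, *Krt79*, *Marco* and *Atp6v0d2* were among the 10 leading genes in both.

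Over 12 classes in both sections, which makes 24 points that share libraries and panel, the 2 genes followed each other with a Pearson r of 0.60 on log2(CPM + 10). The genes most like *Rgs5* by this measure were *Rbp7* (r = 0.80), *Tcf15* (0.79), *Aspn* (0.76), *Ppp1r1a* (0.73) and *Angpt2* (0.73). Those most like *Mgll* were *Cav1* (0.87), *Ccdc80* (0.84), *Gamt* (0.84), *Dpt* (0.82) and *Lyve1* (0.82). *Rbp7* encodes a retinol-binding protein of capillary and fat tissue, and *Angpt2* a vessel-destabilizing ligand made by endothelial cells. *Cav1* encodes the coat protein of caveolae, which abound in endothelium and fat. No other regulator of G protein signaling and no other gene of monoglyceride or endocannabinoid metabolism from the lists drawn up was on the panel (0 of 20 and 0 of 22).

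Between the sections, the 2 genes differed in opposite directions over all cells. *Rgs5* went from 374 CPM (365 to 383) in RPR2 to 834 CPM (825 to 844) in CRPR2, which is 1.16 on the log2 scale (1.12 to 1.20). *Mgll* was at 3694 CPM (3665 to 3724) and 1973 CPM (1959 to 1987), a log2 ratio of -0.91 (-0.92 to -0.89). Of the 358 genes with at least 100 CPM in a section, 22.9% were higher in CRPR2 by 2-fold or more, 24.3% were lower by as much, and the median log2 ratio was -0.14. *Rgs5* therefore lay above the 2-fold line and *Mgll* short of it. The sections differed greatly in make-up. Endothelial-like cells were 38.1% of RPR2 and 14.6% of CRPR2 cells and held 58.6% and 37.4% of all *Mgll* transcripts, while tumor cells, the class lowest in *Mgll*, were 9.01% and 47.2%. Over all cells that were not tumor cells, *Mgll* was at 4095 and 3531 CPM (log2 ratio -0.21) and *Rgs5* at 404 and 1329 CPM (1.72). The mural list's own genes were lower in CRPR2 over all cells, with a median log2 ratio of -1.55 and 8 of 10 lower by 2-fold or more, so *Rgs5* did not follow them.

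Within the classes, *Rgs5* was higher in CRPR2 with an interval above 0 in 11 of 12 classes. Tumor cells are among these 11 by the choice of the genes and add nothing to the tally. On the RPR2 side, mesothelial-like cells rest on 1 *Rgs5* transcript, neutrophil-like cells on 8 and T- or NK-like cells on 10. The interval of the remaining class, ciliated-like cells, held 0 at a log2 ratio of 0.27 (-0.31 to 0.82). In endothelial-like cells the level went from 349 to 1906 CPM, a log2 ratio of 2.45 (2.38 to 2.52). In this class 36.4% of 324 genes were higher by 2-fold or more and the median gene had a log2 ratio of 0.47, and *Rgs5* ranked 53rd. Cells without an NE transcript were 56912 of its 58272 in RPR2 but only 34278 of its 49897 in CRPR2. In secretory-like cells they were 12094 of 13354 and 13966 of 30906, with *Rgs5* at 60.2 and 269 CPM (2.16). The part of tumor transcripts in these class differences was not tested. Fibroblast-like cells had a log2 ratio of 2.37, with *Rgs5* in rank 16 of 339 genes whose median was 0.31. In mural-like cells the log2 ratio was 1.54 (1.45 to 1.62), beside 26.4% of 330 genes at 2-fold or more and a median gene of 0.24. The 10 genes of the mural list did not share that difference. In mural-like cells their median log2 ratio was -0.37, they ranged from -0.81 to -0.05, and none reached 2-fold either way.

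The *Rgs5* difference was uneven over the markers of vessel cells. It was widest in cells with *Gpihbp1* (log2 ratio 3.41, 3.30 to 3.53), *Sox17* (3.27, 3.02 to 3.53) and *Kdr* (3.13, 3.04 to 3.23), all blood vessel endothelial genes. With *Mmrn1* it was 0.33 (0.06 to 0.60) and with *Lyve1*, a hyaluronan receptor of lymphatic endothelium, 1.20. Among mural markers it ran from 0.16 (-0.00 to 0.32) with *Cnn1* to 2.68 (2.52 to 2.85) with *Higd1b*, with a median of 1.53 over the 10. Cells with *Vwf* were the exception among the 15 endothelial markers at -0.33, and *Vwf* was also abundant in tumor cells, at 17949 and 22293 CPM. Endothelial-like cells that held no transcript of any mural gene, 8084 in RPR2 and 12376 in CRPR2, had *Rgs5* at 116 CPM (90.2 to 146) and 659 CPM (606 to 715), a log2 ratio of 2.51. Those without any NE transcript had 345 and 2073 CPM (2.59). Of the fibroblast-like cells, those without a mural transcript had 206 and 1023 CPM (2.31).

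*Mgll* differed little between the sections in the vessel classes. In endothelial-like cells it was at 5668 CPM (5609 to 5727) and 5382 CPM (5319 to 5446), a log2 ratio of -0.07, and in mural-like cells the ratio was -0.09. These 2 small ratios depend on how the cells were called: without NE transcripts the endothelial-like ratio was 0.12, and without mural transcripts it was -0.69. Of 12 classes, 5 were higher in CRPR2, 5 were lower and 2, the T- or NK-like and neutrophil-like cells, had an interval that held 0. Higher were tumor cells (1.88), secretory-like (0.98) and ciliated-like cells (0.76), whose levels were low in both sections, and adipocyte-like (0.48) and macrophage- or monocyte-like cells (0.42), whose levels were high. Tumor cells are among these 5 by the choice of the genes and add nothing to the tally. Lower were mural-list, endothelial-like, mesothelial-like (-0.38), fibroblast-like (-0.33) and AT2-like cells (-0.54). Secretory-like cells without an NE transcript had *Mgll* at 269 and 663 CPM (1.30). Within cells holding *Marco* the log2 ratio was 0.00 (-0.13 to 0.13) and within cells holding *Atp6v0d2* it was -0.09.

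**Figure D2:**
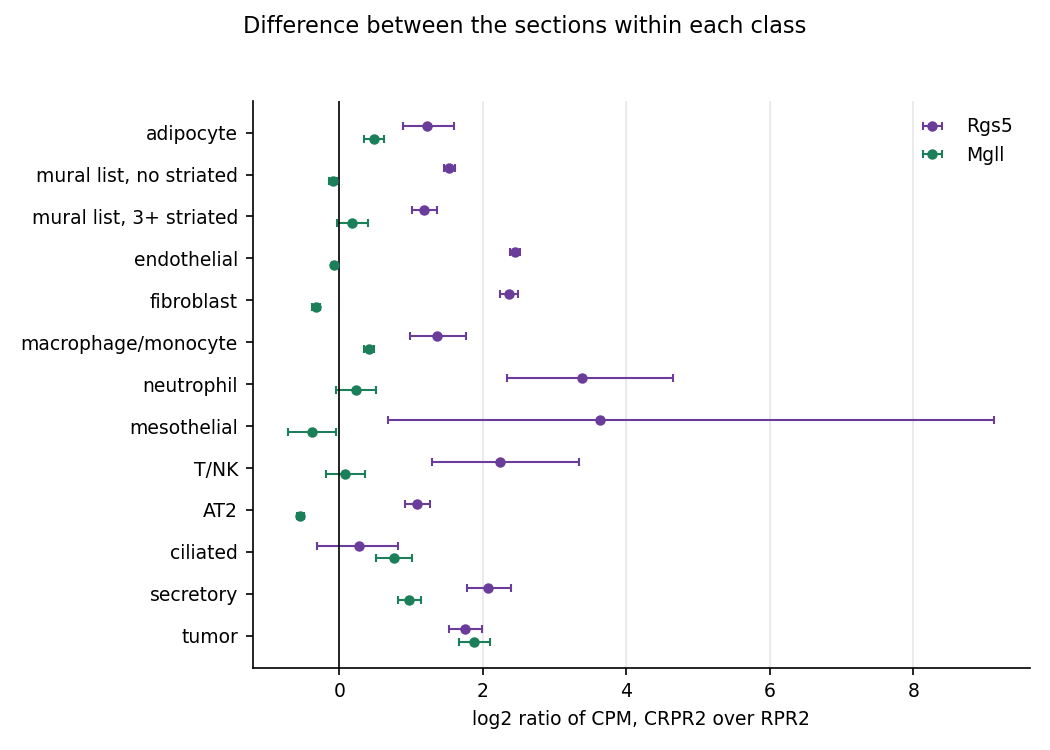
Log2 ratio of CRPR2 over RPR2 for each gene in each class, with bars for the exact 95% counting interval and a line at 0. The mural list is drawn as cells without and cells with 3 or more striated muscle transcripts. The *Rgs5* interval lies to the right of 0 in every row except ciliated-like cells, where it crosses 0. The tumor row was fixed by the choice of the genes, and the mesothelial-like row rests on 1 RPR2 transcript. *Mgll* lies between -0.54 in AT2-like cells and 0.98 in secretory-like cells apart from 1.88 in tumor cells.

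The count of *Rgs5* transcripts per *Mgll* transcript differed between the sections in the vessel classes. It was 0.0615 in endothelial-like cells of RPR2 and 0.354 in those of CRPR2, 0.333 and 0.972 in cells of the mural list, and 0.0922 and 0.597 in fibroblast-like cells. In tumor cells it was 0.887 (0.715 to 1.10) and 0.815 (0.788 to 0.842), with overlapping intervals. Both genes were chosen for higher levels in the tumor cells of 1 section, so nothing is read from the likeness of these tumor values. The tumor value in RPR2 lay above that of every one of these 3 classes, and in CRPR2 it lay between the fibroblast-like and mural-list values. These are ratios of counts and give no order of the 2 genes' levels, because each gene has its own probes.

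In tumor cells, the cells by which the genes had been chosen, *Rgs5* was at 101 CPM (85.8 to 117) in RPR2 and 340 CPM (332 to 349) in CRPR2, and *Mgll* at 113 and 417 CPM. Those values rest on 165 and 186 transcripts in RPR2 and 6351 and 7796 in CRPR2, and the most abundant negative control probe in the same cells was at 12.2 CPM. The log2 ratios were 1.76 (1.53 to 1.99) for *Rgs5* and 1.88 (1.67 to 2.10) for *Mgll*, beside 6.25% of 288 genes at 2-fold or more, and nothing is read from this since the choice used it. The 2 genes ranked 4th and 3rd in that comparison. *Rgs5* was held by 124 tumor cells in RPR2 and by 4795 in CRPR2, 2.98% of them, *Mgll* by 1.22% and 4.35%, and both by 7 cells in RPR2 and 492 in CRPR2. Tumor cells held 2.71% of all *Rgs5* transcripts of the RPR2 section and 20.4% of those of the CRPR2 section.

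Both genes were lower in cells with many NE transcripts than in cells with none, although *Rgs5* in RPR2 did not fall at every step. Cells with no NE transcript had *Rgs5* at 403 and 1491 CPM and *Mgll* at 4178 and 4492 CPM. Just outside the tumor threshold, with 3 NE transcripts, *Rgs5* was at 266 and 667 CPM and *Mgll* at 446 and 765 CPM. Just inside it, with 4, *Rgs5* was at 181 and 498 CPM and *Mgll* at 190 and 571 CPM. In cells with 15 or more NE transcripts *Rgs5* was at 77.4 CPM (51.0 to 113) and 282 CPM (259 to 307) and *Mgll* at 83.2 CPM (55.7 to 119) and 339 CPM (314 to 365). The log2 ratios between the sections in these cells were 1.87 and 2.03, a difference that the choice of the genes by tumor cells had already used.

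**Figure D3:**
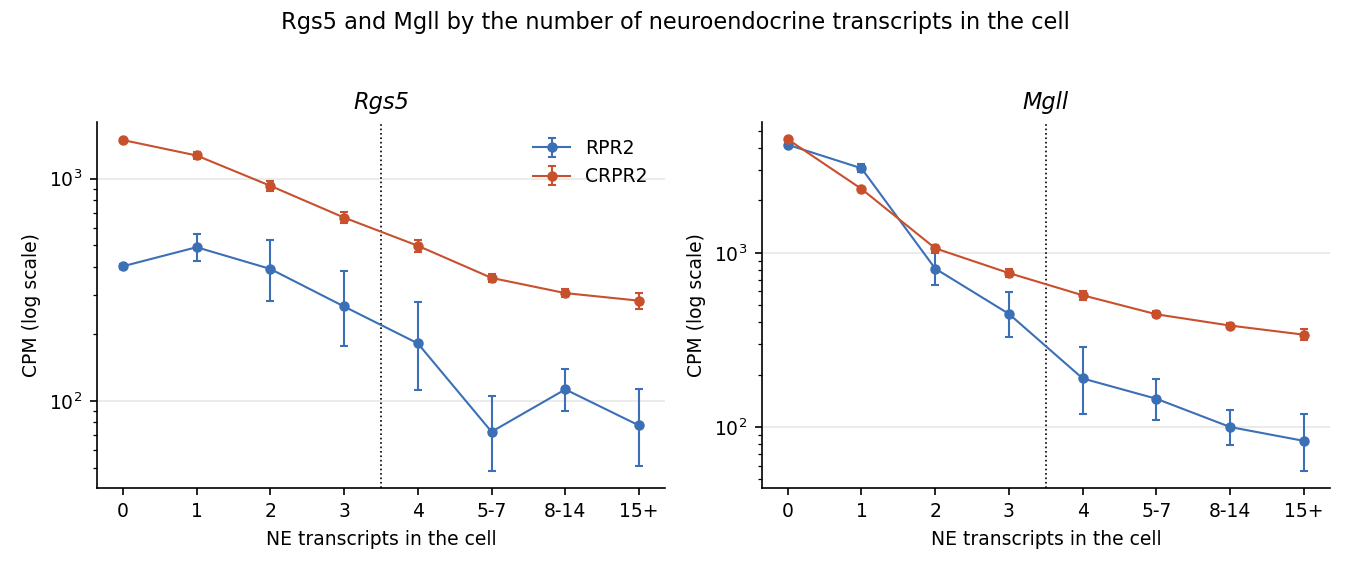
Levels of *Rgs5* and *Mgll* in CPM on a log axis against the number of NE transcripts in the cell, with 1 line per section, bars for the exact 95% counting interval and a dotted line at the tumor threshold between 3 and 4. *Mgll* goes from 4178 and 4492 CPM at 0 NE transcripts to 83.2 and 339 CPM at 15 or more, and *Rgs5* is higher in CRPR2 throughout.

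Tumor cells that held many other stromal transcripts held more of both genes. Over the 37 mural, endothelial and fibroblast list genes, 522 tumor cells of RPR2 and 3061 of CRPR2 held none at all. These had 1 and 31 *Rgs5* transcripts, or 27.1 CPM (0.685 to 151) and 143 CPM (97.3 to 203), and 4 and 64 *Mgll* transcripts, or 108 CPM (29.5 to 277) and 296 CPM (228 to 377). Their log2 ratios were 2.40 (-0.18 to 7.75) and 1.45 (0.02 to 3.37), so that at this depth the RPR2 side hardly bounds them. Cells with 1 or 2 stromal transcripts were at like or lower levels, with *Mgll* at 59.1 and 320 CPM, and cells with 11 or more had *Rgs5* at 318 and 873 CPM and *Mgll* at 294 and 791 CPM. Some of these 37 genes were abundant in the tumor cells themselves, *Vwf* and *Prox1* most of all, with *Prox1* at 9359 and 8470 CPM. A reduced set of 27 genes, chosen after the values were seen, left out those that reached 5% of their own class's level in tumor cells of either section.

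Over all 37 genes, tumor cells with any stromal transcript against those with none had *Rgs5* at a log2 ratio of 1.92 (-0.58 to 7.23) in RPR2 and 1.26 (0.75 to 1.82) in CRPR2, and *Mgll* at 0.07 (-1.31 to 1.96) and 0.50 (0.15 to 0.88). In cells thinned to 50 transcripts before the split, these were 0.87 (-0.44 to 2.55) and 0.90 (0.66 to 1.16) for *Rgs5* and 0.97 (-0.33 to 2.64) and 0.29 (0.10 to 0.48) for *Mgll*.

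With the reduced set, 10164 tumor cells in RPR2 and 112006 in CRPR2 held no stromal transcript. *Rgs5* was at 38.3 CPM (27.8 to 51.4) and 126 CPM (119 to 132) in them and *Mgll* at 76.5 CPM (61.4 to 94.3) and 295 CPM (285 to 305). The log2 ratios between the sections were 1.72 (1.28 to 2.18) and 1.95 (1.64 to 2.27). These cells are most of the tumor cells by which the genes were chosen, so ratios close to those of all tumor cells were largely built in. Tumor cells with any such transcript had *Rgs5* at 246 and 748 CPM, which set with against without at a log2 ratio of 2.69 in RPR2 and 2.57 in CRPR2. For *Mgll* they had 199 and 651 CPM, a log2 ratio of 1.38 and 1.14. At 6 or more stromal transcripts, 222 and 3763 cells, *Rgs5* reached 890 and 2361 CPM and *Mgll* 948 and 1778 CPM, and the section log2 ratios were 1.41 and 0.91. The median depth of the cells went up with these groups too, from 106 and 103 transcripts at none to 144 and 150 at 6 or more, and the reduced set was not run on thinned cells. The part of outlines that take in a neighboring cell was not tested.

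**Figure D4:**
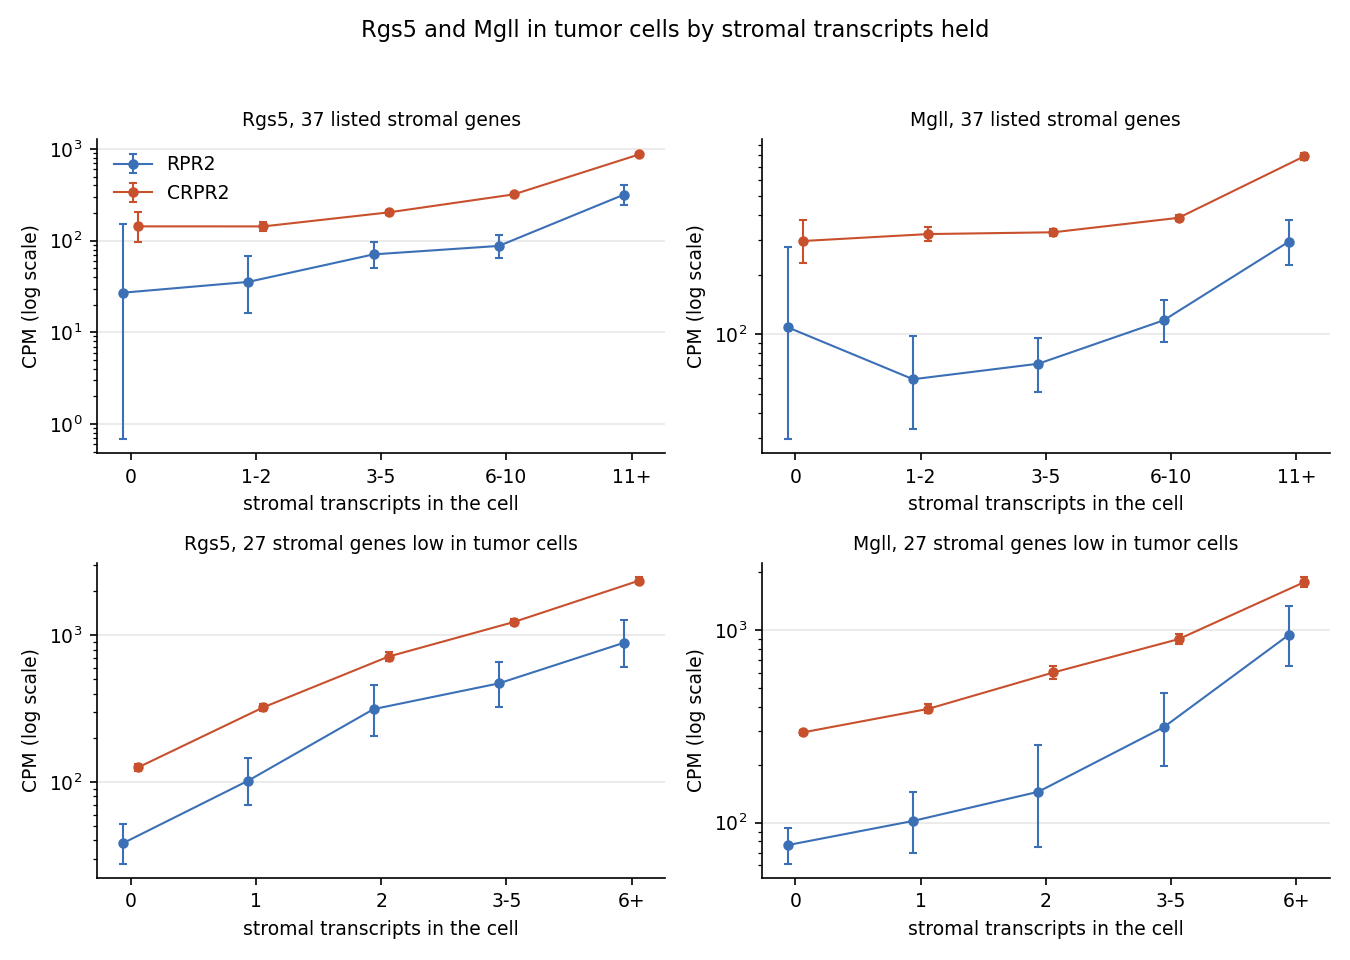
Levels of *Rgs5* and *Mgll* in tumor cells in CPM on a log axis against the number of stromal transcripts held, over all 37 listed genes in the upper and the reduced set in the lower panels, with 1 line per section and bars for the exact 95% counting interval. Over the reduced set of 27 genes both genes go up along the axis in both sections, from 38.3 and 126 CPM to 890 and 2361 CPM for *Rgs5*, while over all 37 genes *Mgll* in RPR2 is at 108 CPM at 0 and 59.1 CPM at 1 or 2.

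The 2 genes differed in which stromal transcripts they went with. In RPR2, tumor cells with a fibroblast transcript of the reduced set had *Rgs5* at a log2 ratio of 3.05 (2.59 to 3.53) over those without, and those with a mural transcript at 2.35 (1.88 to 2.81). With an endothelial transcript it was 1.28 (0.72 to 1.81), whose upper bound is below the lower bound of the other 2. In CRPR2 the 3 values were 2.48, 2.46 and 1.66, again with the endothelial one lowest. For *Mgll* the endothelial, mural and fibroblast values were 1.90 (1.43 to 2.36), 1.79 (1.32 to 2.25) and 1.53 (1.07 to 1.98) in RPR2, with overlapping intervals. In CRPR2 they were 1.49 (1.42 to 1.55), 1.04 (0.96 to 1.11) and 0.95 (0.88 to 1.02), with the endothelial one apart from the other 2. In RPR2, macrophage or monocyte transcripts went with *Mgll* (1.93, 1.47 to 2.37) and not with *Rgs5* (0.05, -0.67 to 0.71). In CRPR2 they went with both to a like degree, at 0.42 (0.33 to 0.51) for *Mgll* and 0.44 (0.35 to 0.54) for *Rgs5*. Transcripts of ciliated cells went with lower *Rgs5* in CRPR2, at -0.23 (-0.33 to -0.12). In RPR2 the interval held 0, at -0.41 (-1.08 to 0.21). Secretory (-0.62), mesothelial (-0.82) and cartilage transcripts (-0.28) also went with lower *Rgs5* in CRPR2. These lists were cut by the same 5% limit. It left the secretory list with 1 of its 12 genes, *Tff2*, so that value stands for this gene alone. T or NK (0.87) and neutrophil transcripts (0.36) went with higher *Rgs5* there, and the adipocyte and glial intervals held 0. For *Mgll* in RPR2, neutrophil (1.76) and glial transcripts (1.59) went with higher levels and mesothelial (-1.71) and ciliated ones (-0.68) with lower. Those 4 values rest on 10, 14, 5 and 24 *Mgll* transcripts in the cells with them. In CRPR2 the neutrophil (0.67) and mesothelial (-0.36) values kept their signs. The ciliated one turned to 0.19 (0.10 to 0.28), and the glial interval held 0, at -0.15 (-0.35 to 0.03).

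Tumor cells rich in either gene were few and mostly held stromal transcripts. In CRPR2, 313 tumor cells had 3 or more *Rgs5* transcripts, and 93.0% of them held a transcript of the reduced set against 29.0% of tumor cells without *Rgs5*. They held 18.5% of the *Rgs5* transcripts of CRPR2 tumor cells. Of the 111 tumor cells with 3 or more *Mgll* transcripts 84.7% held one, against 29.3% of those without *Mgll*. Depth moved with these groups, with medians of 143 and 167 transcripts per cell against 108 and 107, and its part was not tested. RPR2 had 10 and 2 such cells. Tumor cells with 1 or 2 *Rgs5* transcripts supplied 81.5% of the gene's tumor transcripts in CRPR2, and 69.5% of them held a stromal transcript.

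Set against the stromal classes, the tumor level of *Rgs5* was 5.68% of that in cells of the mural list in RPR2 and 6.83% in CRPR2, both levels being higher in CRPR2. Against endothelial-like cells it was 28.8% and 17.8%. The tumor level of *Mgll* went from 2.00% to 7.76% of the endothelial-like level, from 2.13% to 8.15% of the mural-list level and from 1.66% to 4.59% of the macrophage- or monocyte-like level. The tumor levels in these percents were the ones that chose the genes. The rise for *Mgll* was therefore built in, and nothing is read from it. The 15 endothelial list genes had a median of 1.65% of their own class's level in RPR2 tumor cells and 2.54% in CRPR2, up to 2321% and 272% for *Prox1*, and the 10 mural list genes a median of 0.485% and 1.00%. The list genes called their own classes, which lowers their percents, and *Rgs5* and *Mgll* did not. They are therefore no like-for-like comparison. In the tumor cells themselves, log2 ratios of CRPR2 over RPR2 were compared among genes with at least 100 CPM in tumor cells of a section. The 12 endothelial list genes that passed had a median of 0.79, with *Kdr* at -0.16 and *Prox1* at -0.14. The 6 mural list genes had a median of 0.23 and the 9 fibroblast list genes one of 0.08. All 288 genes that passed had a median of 0.01. The part of endothelial transcripts in the tumor cell differences of *Rgs5* and *Mgll* was not tested.

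**Figure D5:**
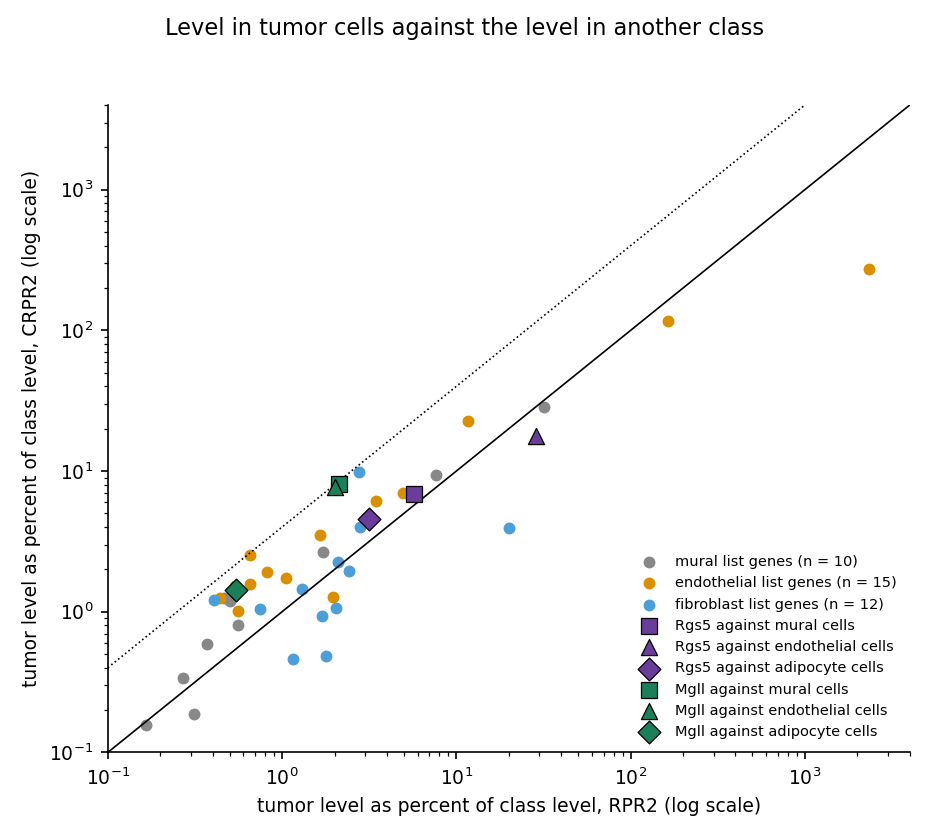
Tumor level as a percent of the level in another class, RPR2 on the horizontal and CRPR2 on the vertical log axis, for the genes of the 3 stromal lists against their own class and for *Rgs5* and *Mgll* against mural-list, endothelial-like and adipocyte-like cells, with a solid line for equal percents and a dotted line for 4 times as much in CRPR2. *Mgll* lies well above the solid line, at 2.00% and 7.76% of the endothelial-like level, and *Rgs5* nearer to it, at 5.68% and 6.83% of the mural-list level, and below it against endothelial-like cells. The tumor levels were the ones that chose the 2 genes, so the place of *Mgll* above the line was built in.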

How the data were processed

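Transcripts were counted per cell by Xenium In Situ (custom and predesigned probes for 479 genes among 541 features), and the authors deposited the resulting whole-number counts as 1 matrix per section. Their notes name Seurat 4.4.0, and the genome build behind the probes is not given in the sources used here. Cells with under 20 gene transcripts were left out (1903 in RPR2, 2236 in CRPR2), and no doublet caller was run. The sections shared 8 cell identifiers, none with equal counts. Cells are not replicates, so counts were summed per section and class and given as CPM with exact Poisson intervals, shares with Clopper-Pearson intervals and ratios with exact conditional intervals (95%, counting error only), using Python 3.11.15, numpy 2.4.6, scipy 1.17.1 and pandas 2.3.3. Shares were also computed with cells thinned to 50 transcripts. The ratio script was tested on simulated data.

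Non-tumor cells were given the class whose list had the most transcripts, at least 3 and more than any other list. Of 19 lists, 14 had 3 or more panel genes and were used, and those for AT1, B or plasma, striated muscle, platelet and mast cells were not. Genes were named by a rule: the 2 genes, panel genes of the mural, endothelial and fibroblast lists, the 5 genes most correlated with each over classes, and the 10 most raised in cells with 3 or more of its transcripts. The macrophage, fat, *Aspn* and *Colec11* marker groups, the 7 striated muscle genes and the 27-gene stromal set were chosen after the values were seen. The 2 genes and all lists were chosen with earlier results of these data known. Cell positions were not used here.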

Additional observations from a re-analysis of the deposited data

Results flagged for a closer look

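The log2 ratio of CRPR2 over RPR2 for *Mgll* had opposite signs in different classes, with counting intervals on either side of 0. It was positive in tumor cells (1.88), secretory-like cells (0.98), ciliated-like cells (0.76), adipocyte-like cells (0.48) and macrophage- or monocyte-like cells (0.42). The tumor value was used to choose the genes and adds nothing here. The ratio was negative in AT2-like cells (-0.54), mesothelial-like cells (-0.38), fibroblast-like cells (-0.33), endothelial-like cells (-0.0745) and cells of the mural list (-0.0549). The endothelial-like and mural-list ratios were near 0 and depended on how the cells were called. With 1 section per genotype the difference between the classes was not tested.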

How the results depend on the processing

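Of 65 alternative values, 62 had the sign of the value reported and 3 the other, and 49 moved by less than the counting interval. No paired analysis was possible because there was 1 section per genotype. The signs turned for *Mgll* in endothelial-like cells, a ratio near 0 (log2 -0.07), which was 0.0486 with cells called at 5 transcripts and 0.12 without cells holding NE transcripts, and for *Mgll* with over without stromal transcripts in RPR2 tumor cells called at 8 NE transcripts, at -0.55 (-2.44 to 2.52). The same endothelial-like ratio was -0.13 with cells called at 2 transcripts and -0.69 without mural transcripts, and in cells of the mural list called at 5 it was -0.00214. For *Rgs5* in endothelial-like cells the ratio was 2.55 when called at 5 and 2.59 without NE transcripts. Mean transcripts per cell in place of CPM gave 1.20 for *Rgs5* and -0.86 for *Mgll* over all cells. A tumor threshold of 2 NE transcripts gave 1.53 for *Mgll* in tumor cells. The log2 ratio of the share of cells holding *Mgll* was -0.91 thinned to 100 transcripts, -0.95 without thinning and -1.09 counting cells with 2 or more, and that of *Rgs5* 1.32 counting cells with 2 or more. Stromal lists reduced to 27 genes gave 2.57 for *Rgs5* and 1.14 for *Mgll* with over without in CRPR2, against 1.26 and 0.50 with all 37. Tumor cells without stromal transcripts held no *Rgs5* in RPR2 at a minimum of 50 transcripts or a threshold of 8, so no ratio could be given there, and the cause of the other changes was not tested. Counting error limits the RPR2 tumor values, which rest on 165 *Rgs5* and 186 *Mgll* transcripts.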
